A study of Homo sapiens with 12 samples.

Results

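The ATF4 pathway and its amino acid genes were followed in H1 cells in which the transcription factor ZNF263 was knocked out or overexpressed. The set held 35 genes, chosen by name and without use of their measured values in the rule. Earlier results of these data were known when the genes were chosen. The set comprised ATF4 and 6 other stress transcription factors, 7 stress effectors, 8 enzymes of amino acid and one-carbon synthesis, 3 amino acid transporters, 8 genes of tRNA charging and export, and 2 genes of protein quality control in the endoplasmic reticulum. All 35 were among the 27130 genes of the deposited count table, and 34 of them had enough counts to be tested.

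The cells were of H1 (WA01), an established human embryonic stem cell line, and poly(A) RNA was sequenced in 12 libraries, 3 per group. One group carried a homozygous knockout of ZNF263 (ZNF263 KO). Another had the same knockout and overexpressed ZIC2, also a zinc finger transcription factor (ZNF263 KO ZIC2 OE). The last of the altered groups overexpressed ZNF263 itself (ZNF263 OE). Each of the 3 groups was set against wild type H1 cells (WT), and the ZNF263 KO ZIC2 OE group also against ZNF263 KO. Library names of both knockout groups share a tag that those of WT and ZNF263 OE lack. Names of the ZNF263 KO and WT libraries hold the tag vec. What these tags stand for is not given, so a difference between lines cannot be told apart from the knockout. The sources used here do not give the promoter that drove each overexpression or the number of clones behind the knockout. They do not say whether replicate libraries were separate cultures, so p-values cover the spread between these libraries alone, which may be technical.

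ATF4 is the transcription factor of the integrated stress response. When kinases that sense amino acid shortage, unfolded protein, viral RNA or heme deficiency phosphorylate the translation factor eIF2, general protein synthesis slows while the ATF4 message is translated more. ATF4 then binds C/EBP-ATF response elements, often with C/EBP partners, and switches on genes that make, import and charge amino acids, along with factors that end the response or, under lasting stress, promote cell death. Because much of this control acts on translation, the level of the ATF4 message need not follow the level of the protein, which was not measured here.

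The response element has the letters TGATGNAA, where N is any base, and it was searched for on both strands of RefSeq promoters of the build GRCh38.p14, from 250 bases before to 50 bases after each gene's start. Promoters were matched for 30 of the 35 genes. A match was present in 9 of these 30 genes (30.0%), against 4.46% of the 27305 genes with a promoter in the same table. The genes were chosen as members of this pathway, so the higher share may follow from that choice and is a description only. The 30 genes had 45 promoters searched and the 27305 genes 35116, so the number per gene differed. The matches that lie wholly upstream of a start, with their flanks, are shown because they hold the letters of the element after which the pathway's targets are named. Each is printed 5′ to 3′ on the strand of its gene, with the matched letters in capitals.
AARS, chr16:70289666-70289713: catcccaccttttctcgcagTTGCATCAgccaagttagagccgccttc
ASNS, chr7:97872449-97872496: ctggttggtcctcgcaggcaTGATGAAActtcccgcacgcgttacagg
ATF3, chr1:212565196-212565243: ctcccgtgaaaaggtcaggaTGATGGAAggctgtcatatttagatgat
CHAC1, chr15:40953242-40953289: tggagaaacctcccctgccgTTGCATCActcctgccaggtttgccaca
GARS, chr7:30594825-30594872: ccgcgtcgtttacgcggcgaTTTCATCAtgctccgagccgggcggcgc
HERPUD1, chr16:56931946-56931993: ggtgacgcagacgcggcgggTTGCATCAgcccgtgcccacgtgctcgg
The ASNS match began 68 bases before the start and has the forward letters, as has the ATF3 match at 191 bases before it. The matches of AARS, CHAC1, GARS and HERPUD1 lie on the opposite strand, 187, 209, 33 and 176 bases before the start. MARS, NARS and SLC3A2 had matches that overlapped or followed the start.

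The other motifs searched were the antioxidant response element, the endoplasmic reticulum stress element and a G-rich motif of the kind bound by ZNF263. The antioxidant element, TGACNNNGC, was present in 11 of the 30 genes, against 16.1% of all genes with a promoter. The endoplasmic reticulum stress element was present in XBP1 alone among these genes and in 0.0916% of all genes. The letters GGGAGGA were present in 5 of the 30 genes (16.7%), against 21.1% of all genes, so the share among these genes was not above that background. The 5 genes were ATF4, ATF5, CEBPB, PHGDH and SLC7A5. Only the match in SLC7A5 is shown, because SLC7A5 had the largest fold change of the set in ZNF263 KO against WT. It was picked by that fold change, so the match says nothing about its cause.
SLC7A5, chr16:87869551-87869597: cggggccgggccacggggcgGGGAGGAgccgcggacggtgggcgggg
A match describes letters in a window and does not show binding. With the letters TGATGNAA in the promoter, 5 of 9 genes were called higher and 1 lower in ZNF263 KO against WT, and without them 12 of 21 were called higher and 2 lower. With GGGAGGA, 4 of 5 genes were called higher and none lower, and without it 13 of 25 higher and 3 lower. Over all tested genes, 20.0% were called higher and 18.5% lower in that comparison.

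Libraries held 17175183 to 21804410 counts, except ZNF263 KO replicate 1 with 43464609. Levels are given as CPM, counts scaled to the same total in each library with the trimmed mean of M values (TMM), and fold changes, standard errors (SE) and adjusted p-values are from edgeR's quasi-likelihood test with Benjamini-Hochberg adjustment over 15437 genes. A gene was called where the adjusted p was under 0.05. ZNF263 averaged 31.1 ± 0.128 CPM in ZNF263 KO, 32.3 ± 3.15 in ZNF263 KO ZIC2 OE, 239.6 ± 18.0 in ZNF263 OE and 39.2 ± 1.35 in WT (SD, n = 3 each). The knockout thus left most of the message, and the sources used here do not say which part of the gene was altered. ZIC2 averaged 156 ± 3.81 CPM in ZNF263 KO, 2040 ± 175 in ZNF263 KO ZIC2 OE, 212 ± 4.67 in ZNF263 OE and 208.5 ± 3.74 in WT. All 10 markers of human pluripotent cells were detected in every group, with sums of 8929 to 9110 CPM in ZNF263 KO, 8604 to 8758 in ZNF263 KO ZIC2 OE, 8755 to 8948 in ZNF263 OE and 8548 to 8611 in WT. The summed level of 10 fibroblast markers was 562 to 606 CPM in ZNF263 KO, 644 to 691 in ZNF263 KO ZIC2 OE, 512 to 526 in ZNF263 OE and 510.3 to 522 in WT, with 4 of the 10 under 1 CPM in each group. FAP was at 0 in ZNF263 KO, LUM in ZNF263 KO ZIC2 OE, DCN, LUM and FAP in ZNF263 OE, and DCN and FAP in WT. Of the 6 fibroblast markers with enough counts to test, 4 were called higher and none lower in ZNF263 KO against WT, and 4 higher and 1 lower in ZNF263 KO ZIC2 OE against WT. Of the 10 pluripotency markers, 5 were called higher and 1 lower in ZNF263 KO against WT. In ZNF263 KO ZIC2 OE against WT, 4 were called higher and 1 lower. Over all tested genes, 20.0% were called higher and 18.5% lower in the first comparison, and 20.3% and 17.3% in the second. Markers of definitive endoderm summed to 8.81 to 10.1 CPM in ZNF263 KO, 9.19 to 10.2 in ZNF263 KO ZIC2 OE, 4.05 to 5.35 in ZNF263 OE and 6.03 to 7.16 in WT. Markers of mesoderm summed to 3.40 to 4.004 CPM in ZNF263 KO and 3.39 to 5.13 in ZNF263 KO ZIC2 OE. They summed to 2.29 to 3.72 in ZNF263 OE and 2.60 to 2.95 in WT. Markers of trophoblast and amnion summed to 5.99 to 7.37, 7.26 to 8.87, 8.04 to 8.35 and 5.33 to 5.81 CPM in the same order. The sums of endoderm, of mesoderm, and of trophoblast and amnion were above every WT library in every library of both knockout groups. In ZNF263 OE, the sum of trophoblast and amnion was above WT and that of endoderm below it. Neuroectoderm markers overlapped between ZNF263 KO and WT. Of the 8 genes in each list of mesoderm, trophoblast and amnion, and neuroectoderm, 6 or 7 were under 1 CPM in each group. Of the 6 endoderm genes, 4 were under 1 CPM in each group. The 2 mitochondrial entries of the table took 1.11 to 1.16% of the counts in ZNF263 KO, 0.963 to 1.13% in ZNF263 KO ZIC2 OE, 1.36 to 1.44% in ZNF263 OE and 1.36 to 1.40% in WT. The precursor of ribosomal RNA, RNA45S5, took 0.122 to 0.257% of the counts in ZNF263 KO, 0.0791 to 0.176% in ZNF263 KO ZIC2 OE, 0.0543 to 0.0810% in ZNF263 OE and 0.0471 to 0.0729% in WT. All ZNF263 KO libraries thus lay above all WT libraries in this share and below them in the mitochondrial share. The part of these shifts in the results below was not tested.

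In ZNF263 KO against WT, 18 of the 34 tested genes were called higher and 3 were called lower. Over all tested genes 38.6% were called, 20.0% higher and 18.5% lower. The median log2 fold change of the 34 genes was 0.13, against -0.01 over all genes. Libraries did not overlap between the groups for 21 genes that were higher and 4 that were lower, where 23.6% and 23.1% of all genes did so. The genes called higher were spread over factors, stress effectors, synthesis, transport and tRNA charging, and the genes called lower were EDEM1, XPOT and NARS. In bulk RNA, a change in the number of cells that express a gene and a change in RNA per cell cannot be told apart.

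**Figure D1:**
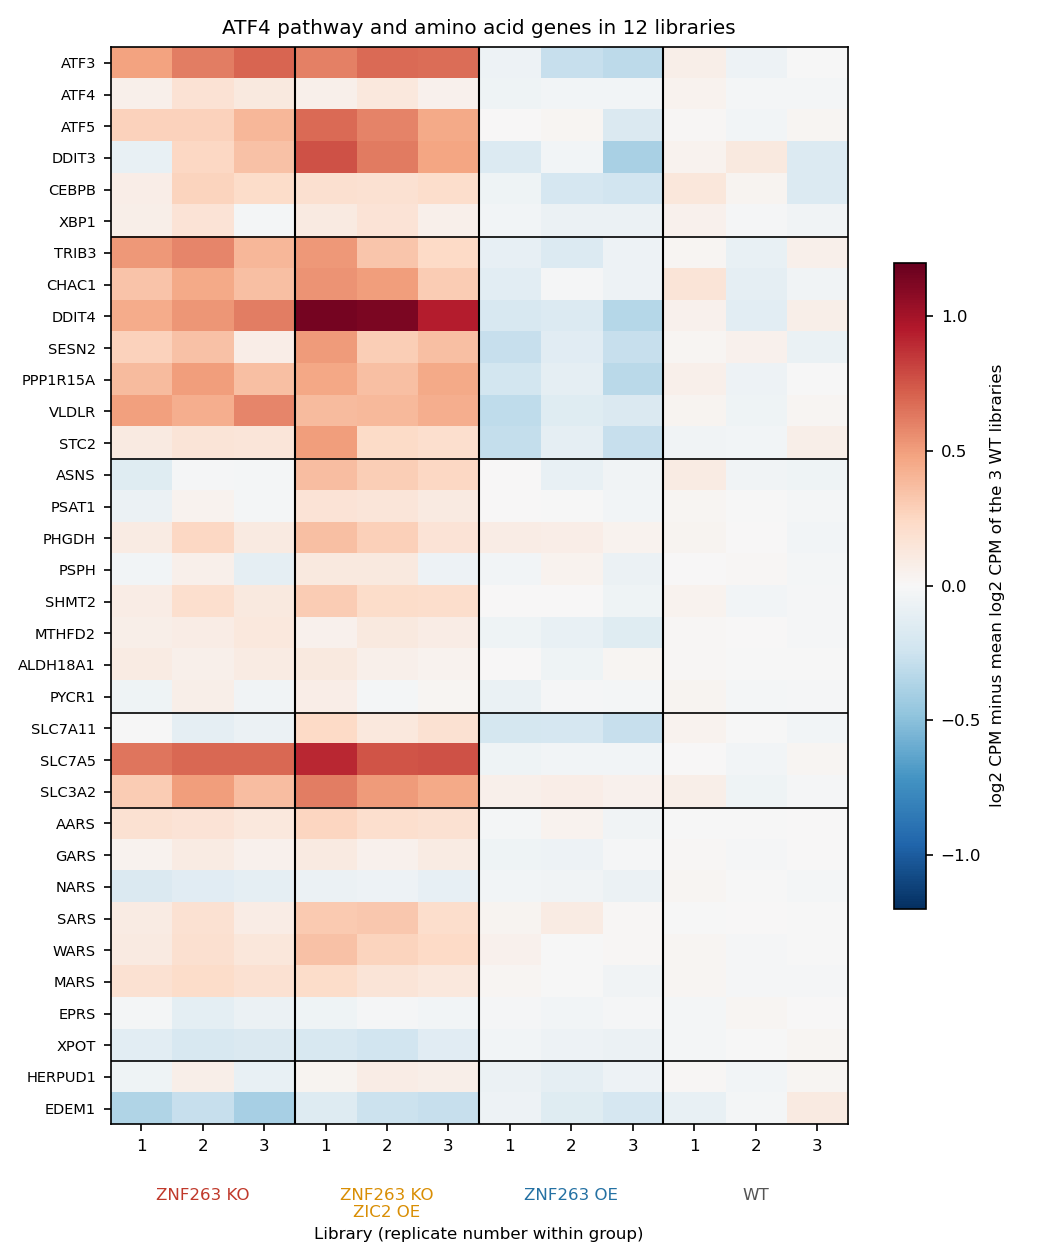
Levels of the 34 tested genes in each of the 12 libraries, as log2 CPM minus the mean log2 CPM of the 3 WT libraries; genes are ordered by role, with lines between roles, and red is above and blue is below WT. The stress effectors and SLC7A5 and SLC3A2 are red in all 6 libraries with the ZNF263 knockout, whereas EDEM1 and XPOT are blue there.

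These fold changes moved with the GC content of the transcripts. Over 14976 genes with a GC value, the Spearman correlation between the log2 fold change in ZNF263 KO against WT and the GC content was 0.42, and over the 34 tested genes of the set it was 0.63. These are descriptions across genes, which share the same libraries. Of 12 genes of the set with at least 55% GC, 10 were called higher and none lower. Of 8 genes under 45% GC, 2 were called higher and 2 lower. Over all tested genes, 20.0% were called higher and 18.5% lower, and shares within the same GC ranges were not counted. The median log2 fold change of all genes was 0.17 in the 20% with the highest GC content and -0.15 in the 20% with the lowest. For ZNF263 KO ZIC2 OE against ZNF263 KO the correlation over all genes was 0.01, for ZNF263 KO ZIC2 OE against WT 0.44, and for ZNF263 OE against WT 0.26. A fit with an offset for GC content and length is therefore given beside the calls of the set that it made or ended. With that offset, 20 genes of the set were called in ZNF263 KO against WT, 17 higher and 3 lower, while 29.5% of all tested genes were called.

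**Figure D2:**
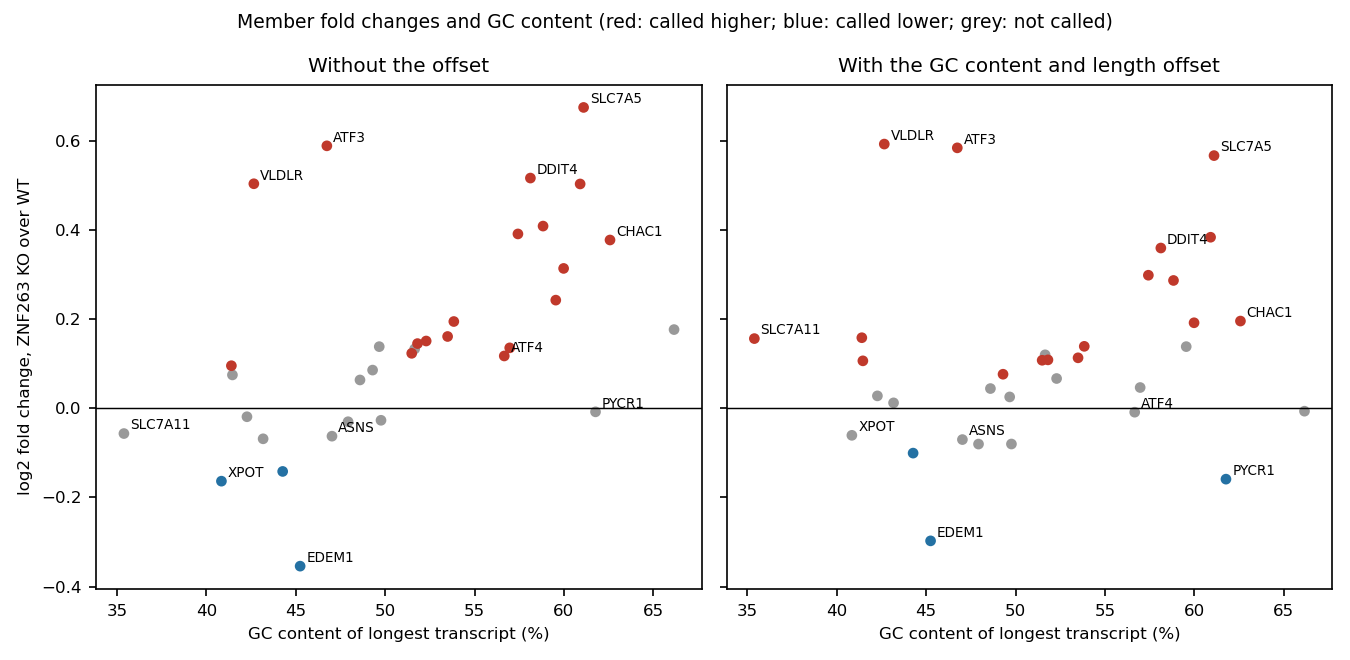
Log2 fold change in ZNF263 KO over WT against GC content of the longest transcript for the 34 tested genes, without (left) and with (right) an offset for GC content and length; red is called higher, blue called lower and grey not called. On the left the points rise with GC content; with the offset SLC7A5, VLDLR, ATF3 and DDIT4 stay high, while ATF4 falls to -0.01 and SLC7A11 turns to 0.16.

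Among the transcription factors, ATF3, ATF5 and ATF4 were called higher in ZNF263 KO than in WT, and DDIT3, CEBPB and XBP1 were not called. ATF4 (chromosome 22, 39916564 to 39918691, hg19) had the highest level of the set per length, with 641 ± 6.61 TPM (transcripts scaled to the same total in each library) in WT. Its level was 523, 566 and 542 CPM in the ZNF263 KO libraries, against 517, 493 and 493 CPM in the WT libraries. All ZNF263 KO libraries were above all WT libraries, by under 6 CPM where they came closest. The log2 fold change was 0.12 ± 0.04 (SE, adjusted p = 0.0127), but it was -0.01 (adjusted p = 0.846) with the offset for GC content and length. The call was also lost without WT replicate 2 (adjusted p = 0.0816) or WT replicate 3 (adjusted p = 0.0799). On the TPM scale, where the median log2 difference of ZNF263 KO over WT was -0.11 over all genes, ATF4 stood at 651 ± 6.80 in ZNF263 KO and 641 ± 6.61 in WT (SD, n = 3 each). The mean of ATF4 was thus higher in ZNF263 KO in CPM and, by little beside the SD, in TPM. With the offset for GC content and length no rise was left.

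ATF3, a stress-induced repressor and activator of the same family, showed a larger difference. ATF3 (chromosome 1, 212738676 to 212794119, hg19) had 31.5, 34.4 and 36.5 CPM in ZNF263 KO, against 23.6, 21.5 and 22.4 CPM in WT. The groups did not overlap, and the log2 fold change was 0.59 ± 0.07 (SE, adjusted p = 5.35e-07). ATF5, a factor that is also translated more when eIF2 is phosphorylated (chromosome 19, 50431959 to 50437193, hg19), had 46.1, 45.9 and 50.0 CPM in ZNF263 KO, against 38.4, 37.1 and 38.6 CPM in WT. Its log2 fold change was 0.31 ± 0.06 (SE, adjusted p = 0.000287), and 0.19 (adjusted p = 0.00722) with the GC offset. DDIT3 (CHOP), which promotes cell death under lasting stress, averaged 4.84 ± 0.748 CPM in ZNF263 KO and 4.28 ± 0.425 CPM in WT (SD, n = 3 each) and was not called (log2 fold change 0.14, adjusted p = 0.473, and 0.03 with the GC offset). DDIT3 shares 68 exon bases with MARS on the opposite strand, and with 90063 counts for MARS against 1208 for DDIT3 over all libraries its values are uncertain, since the kit named in the labels does not mark strand. CEBPB, a frequent partner of ATF4, averaged 13.1 ± 0.875 CPM in ZNF263 KO and 11.5 ± 1.20 CPM in WT and was not called (log2 fold change 0.18, adjusted p = 0.106). CEBPB was called higher without ZNF263 KO replicate 1 (adjusted p = 0.0451), and its log2 fold change was -0.00638 (adjusted p = 0.966) with the GC offset. XBP1, a factor of the unfolded protein response, averaged 141 ± 9.28 CPM in ZNF263 KO and 134 ± 4.69 CPM in WT (adjusted p = 0.2), and was called higher with the GC offset (adjusted p = 0.0178). NUPR1, a stress cofactor, was left out of the tests for low counts, with 0.105 to 0.420 CPM in ZNF263 KO, 0.176 to 0.386 in ZNF263 KO ZIC2 OE, 0 to 0.166 in ZNF263 OE and 0.0480 to 0.173 in WT.

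Of the 7 stress effectors, 6 were called higher in ZNF263 KO than in WT and none lower, beside 20.0% and 18.5% of all genes. VLDLR, a lipoprotein receptor (chromosome 9, 2621774 to 2656103, hg19), had 53.7, 51.6 and 57.4 CPM in ZNF263 KO, against 39.0, 36.8 and 39.0 CPM in WT. The lowest knockout library was 12 CPM or more above every WT library, and the log2 fold change was 0.50 ± 0.05 (SE, adjusted p = 1.38e-07). DDIT4 (REDD1), an inhibitor of the growth kinase complex mTORC1 (chromosome 10, 74033677 to 74035797, hg19), had 25.2, 26.8 and 28.4 CPM in ZNF263 KO, against 19.2, 17.1 and 19.5 CPM in WT. The groups did not overlap, and the log2 fold change was 0.52 ± 0.07 (SE, adjusted p = 8.28e-06). TRIB3, a pseudokinase that restrains ATF4, averaged 20.9 ± 1.33 CPM in ZNF263 KO and 14.7 ± 0.814 CPM in WT (SD, n = 3 each), with a fold change on the log2 scale of 0.50 ± 0.08 (SE, adjusted p = 1.75e-05). PPP1R15A (GADD34), the phosphatase subunit that reverses eIF2 phosphorylation, averaged 20.7 ± 1.14 CPM in ZNF263 KO and 15.5 ± 0.654 CPM in WT, which differed by 0.41 ± 0.07 (log2, SE, adjusted p = 6.63e-05).

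CHAC1, an enzyme that degrades glutathione, averaged 28.9 ± 1.18 CPM in ZNF263 KO and 22.2 ± 2.15 CPM in WT (SD, n = 3 each). Its log2 fold change of 0.38 ± 0.07 (SE, adjusted p = 0.000181) was 0.20 with the GC offset (adjusted p = 0.0122). SESN2, a leucine sensor that restrains mTORC1 (chromosome 1, 28585963 to 28609002, hg19), had 33.8, 35.7 and 29.5 CPM in ZNF263 KO, against 28.4, 28.9 and 26.5 CPM in WT. The groups came within 1 CPM of each other, and the call at a log2 difference of 0.24 ± 0.07 (SE, adjusted p = 0.00786) was lost without WT replicate 3 (adjusted p = 0.0614) and with the GC offset (adjusted p = 0.095). STC2, a secreted glycoprotein (chromosome 5, 172741726 to 172756506, hg19), was not called. It had 68.8, 70.9 and 70.6 CPM in ZNF263 KO, against 61.9, 62.3 and 67.0 CPM in WT (adjusted p = 0.0999), and here too the knockout libraries lay above all WT libraries.

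**Figure D3:**
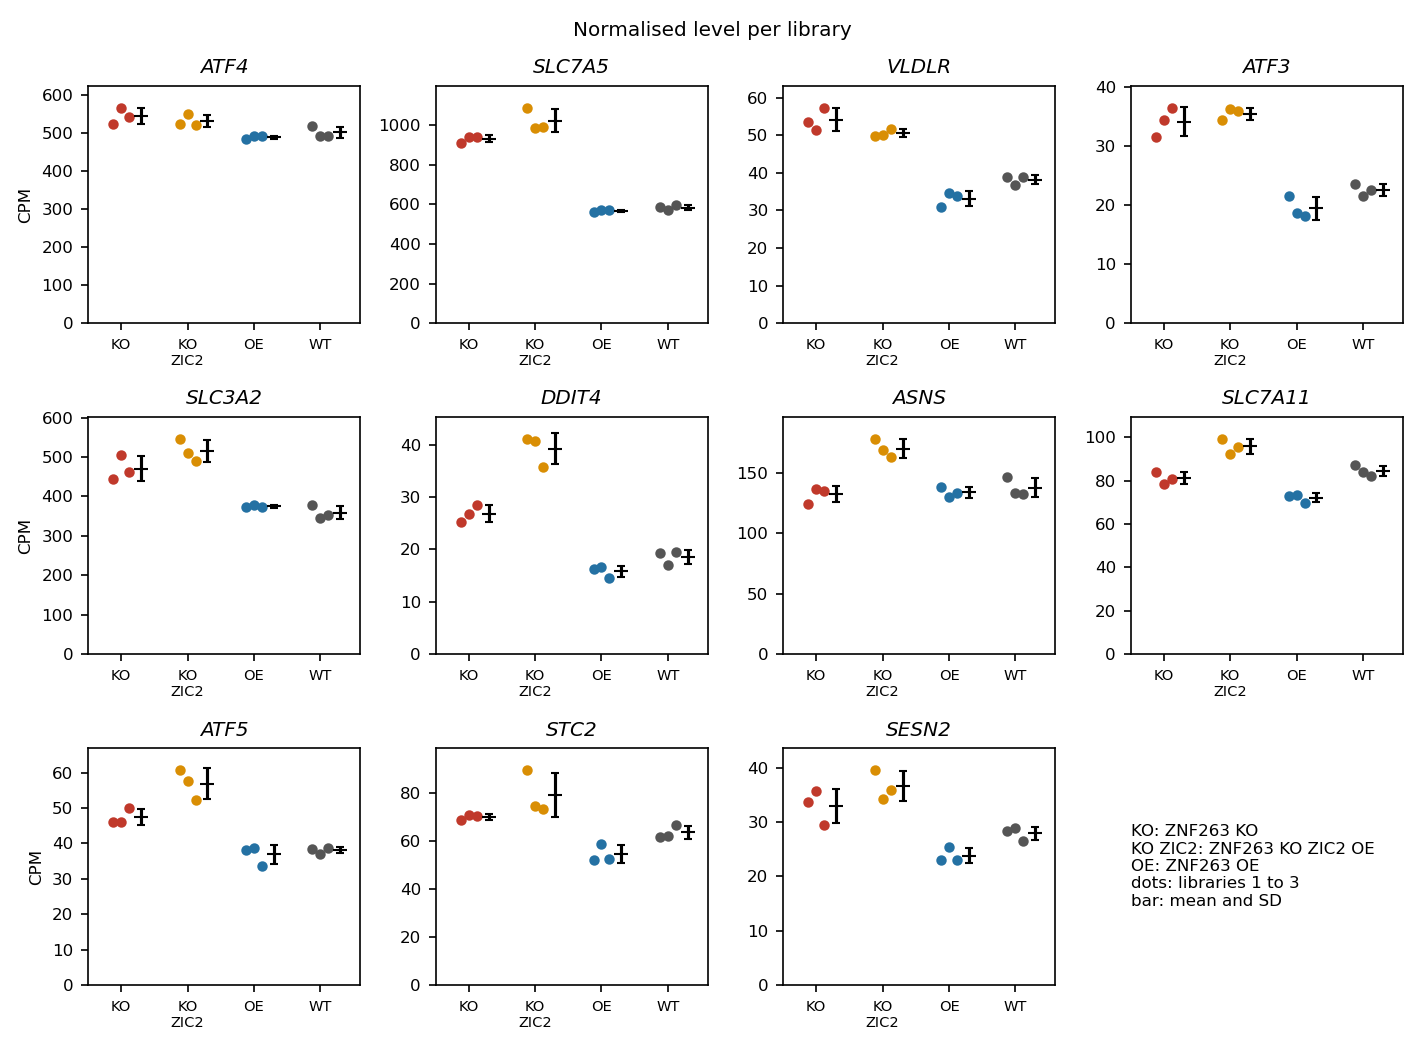
CPM per library (dots) with the mean and SD (bar) of each group for the 11 genes given in full, in ZNF263 KO, ZNF263 KO ZIC2 OE, ZNF263 OE and WT, each axis starting at 0. SLC7A5, VLDLR, ATF3, SLC3A2 and DDIT4 stand above WT in every knockout library, whereas ASNS stands above WT in the ZIC2 libraries only; ATF4 differs little on this scale, and its difference between ZNF263 KO and WT is -0.01 (log2) with the GC offset.

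The transporters gave the largest fold change of the set. SLC7A5 (LAT1), the transporter of leucine and other large neutral amino acids (chromosome 16, 87863622 to 87903105, hg19), had 913, 943 and 943 CPM in ZNF263 KO, against 587, 570.0 and 595 CPM in WT. The lowest knockout library was well above the highest WT library. The log2 fold change was 0.68 ± 0.04 (SE, adjusted p = 2.91e-12), or 1.60-fold. SLC7A5P2, by its name a copy of SLC7A5, held 1744 counts over all libraries, against 200264 for SLC7A5. Their sequences were not compared here. Any reads that match both would be lost from counts of unique alignments.

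SLC3A2 (CD98hc), the partner chain that both SLC7A5 and SLC7A11 need at the cell surface (chromosome 11, 62623484 to 62656355, hg19), had 443, 506 and 463 CPM in ZNF263 KO, against 377, 345 and 354 CPM in WT. The groups did not overlap, and the log2 fold change was 0.39 ± 0.05 (SE, adjusted p = 8.67e-07). Per length, the level of SLC7A5 over that of SLC3A2 was 1.27 ± 0.0693 in ZNF263 KO, 1.27 ± 0.0286 in ZNF263 KO ZIC2 OE, 0.966 ± 0.00925 in ZNF263 OE and 1.04 ± 0.0419 in WT (SD, n = 3 each). The ratio ran from 1.19 to 1.31 in ZNF263 KO, against 0.991 to 1.07 in WT, so the groups did not overlap. SLC7A11 (xCT), the cystine importer, was not called: it had 84.1, 78.6 and 80.6 CPM in ZNF263 KO, against 87.2, 84.2 and 82.4 CPM in WT. SLC7A11 (chromosome 4, 139085248 to 139163503, hg19) has the lowest GC content of the set, 35.4%. Its log2 fold change was -0.06 ± 0.04 (SE, adjusted p = 0.328), but with the GC offset it was called higher, at 0.16 (adjusted p = 0.00419).

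In amino acid and one-carbon synthesis, 3 of 8 genes were called higher and none lower, all by small amounts. Over all genes, 20.0% were called higher and 18.5% lower. PHGDH, the first enzyme of serine synthesis, averaged 529 ± 30.6 CPM in ZNF263 KO and 476 ± 11.7 CPM in WT (SD, n = 3 each, log2 fold change 0.15 ± 0.04 SE, adjusted p = 0.00986). SHMT2, the mitochondrial enzyme that turns serine into glycine, averaged 221 ± 8.83 CPM in ZNF263 KO and 201 ± 5.34 CPM in WT (log2 fold change 0.14 ± 0.04 SE, adjusted p = 0.00836). MTHFD2, the next mitochondrial step of the folate cycle, averaged 246 ± 4.77 CPM in ZNF263 KO and 230.3 ± 1.84 CPM in WT (log2 fold change 0.10 ± 0.04 SE, adjusted p = 0.0388). None of these 3 calls was stable. With the GC offset, PHGDH had an adjusted p of 0.133 and SHMT2 of 0.281. PHGDH was also lost without WT replicate 3 (adjusted p = 0.0653) and SHMT2 without WT replicate 2 (adjusted p = 0.0582). MTHFD2 was lost without ZNF263 KO replicate 3 (adjusted p = 0.142), or without WT replicate 1 (0.0792), 2 (0.112) or 3 (0.142), or with no filter on low counts (0.104), and its log2 fold change was 0.16 with the offset (adjusted p = 6.43e-05).

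ASNS, which makes asparagine and is among the best known ATF4 targets (chromosome 7, 97481429 to 97501854, hg19), had 124, 136 and 135 CPM in ZNF263 KO, against 147, 133 and 133 CPM in WT. The groups overlapped, and ASNS was not called (log2 fold change -0.06 ± 0.05 SE, adjusted p = 0.323). PSAT1 and PSPH, the later steps of serine synthesis, and PYCR1 of proline synthesis had log2 fold changes of -0.02, -0.03 and -0.01 and were not called. With the GC offset PYCR1 was called lower at -0.16 (adjusted p = 0.000572). ALDH18A1, the first enzyme of proline synthesis, had a log2 difference of 0.09 ± 0.04 (SE, adjusted p = 0.0598) and was called higher with the offset (adjusted p = 0.044).

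Among the genes of tRNA charging and export, 4 were called higher, 2 lower and 2 were not called. Over all genes, 20.0% were called higher and 18.5% lower. MARS, AARS, WARS and SARS, the synthetases for methionine, alanine, tryptophan and serine, had log2 fold changes of 0.19, 0.16, 0.15 and 0.12. MARS averaged 379 ± 5.20 CPM in ZNF263 KO and 331 ± 5.12 CPM in WT (SD, n = 3 each, adjusted p = 0.000127). The call of SARS (adjusted p = 0.0208) was lost without ZNF263 KO replicate 2 (adjusted p = 0.0693) or without WT replicate 1 (0.0592), 2 (0.0685) or 3 (0.0716). XPOT, the exporter of tRNA from the nucleus, averaged 313 ± 7.42 CPM in ZNF263 KO and 350.4 ± 6.18 CPM in WT. Its log2 fold change of -0.16 ± 0.03 (SE, adjusted p = 0.000713) was -0.06 with the GC offset (adjusted p = 0.101). NARS, the synthetase for asparagine, averaged 314 ± 7.47 CPM in ZNF263 KO and 346 ± 5.42 CPM in WT (log2 fold change -0.14 ± 0.03 SE, adjusted p = 0.00172). GARS and EPRS, the synthetases for glycine and for glutamate and proline, were not called. In the endoplasmic reticulum, EDEM1, which marks misfolded glycoproteins for degradation, averaged 15.4 ± 0.672 CPM in ZNF263 KO and 19.5 ± 1.37 CPM in WT (log2 fold change -0.35 ± 0.07 SE, adjusted p = 0.000328). HERPUD1, a membrane protein of the same degradation route, averaged 23.6 ± 1.37 CPM in ZNF263 KO and 24.0 ± 0.472 CPM in WT and was not called (adjusted p = 0.72).

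**Figure D4:**
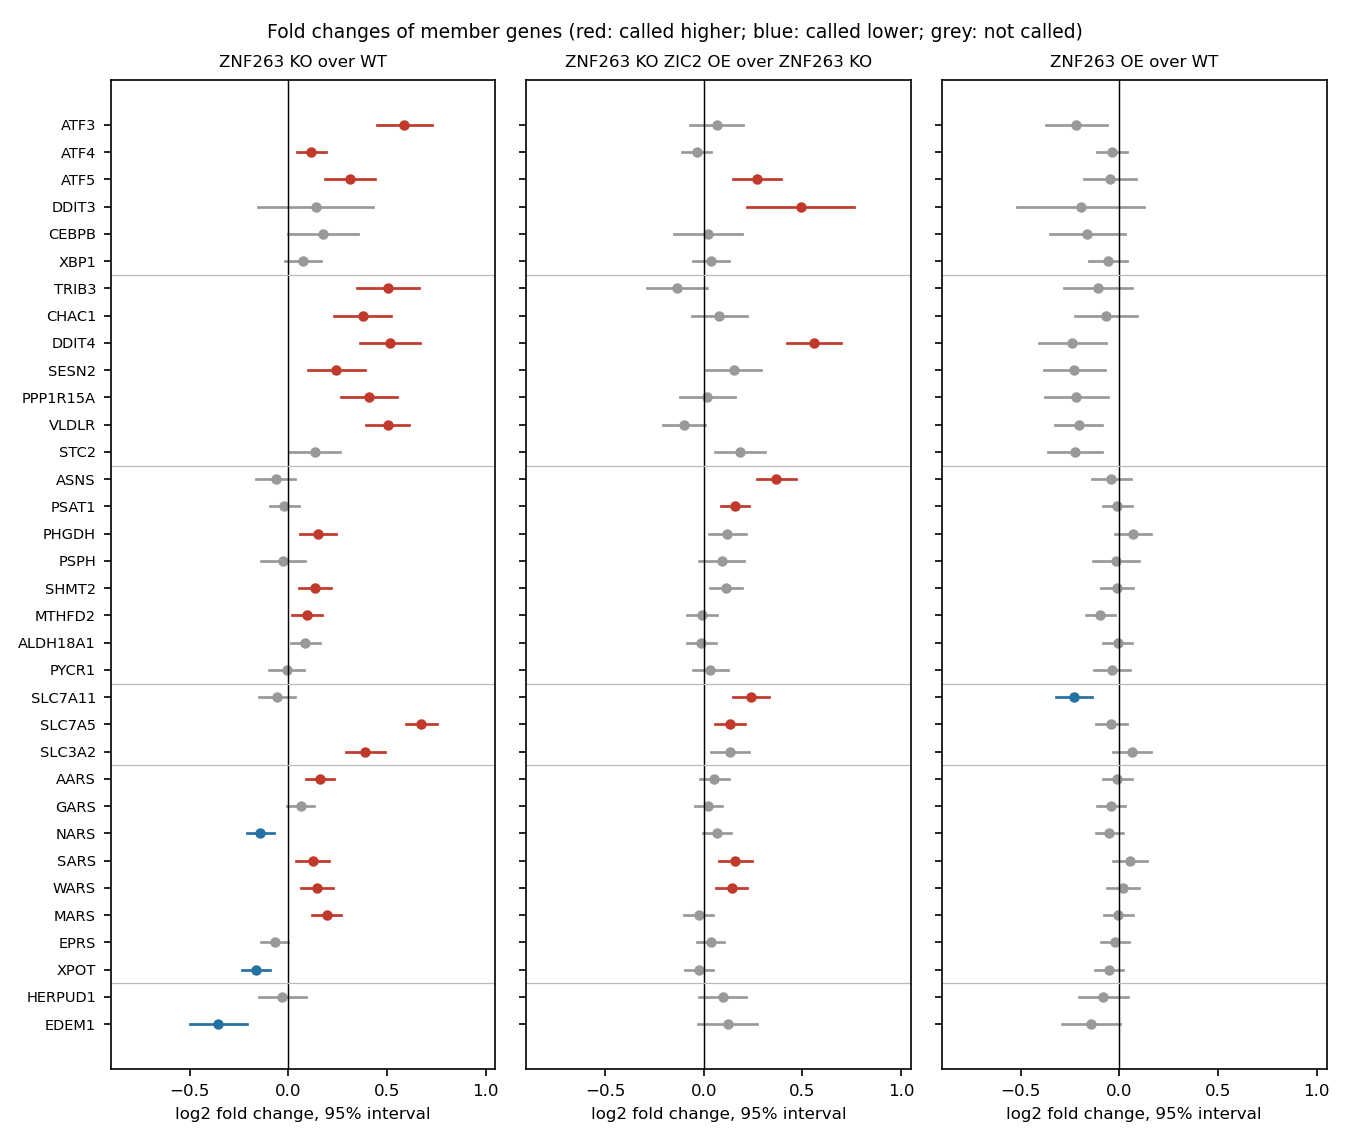
Log2 fold changes with 95% intervals from edgeR for the 34 tested genes, ordered by role, in ZNF263 KO over WT (left), ZNF263 KO ZIC2 OE over ZNF263 KO (middle) and ZNF263 OE over WT (right); red is called higher, blue called lower and grey not called. The left panel has 18 red and 3 blue points, the middle 9 red and none blue, and the right 1 blue point, SLC7A11. The ATF4 point on the left turns to -0.01 with the GC offset and the SLC7A11 point there to 0.16.

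The genes called higher with ZIC2 overexpression in knockout cells included ASNS, SLC7A11 and PSAT1, which were not called in ZNF263 KO against WT, and DDIT4, SLC7A5 and ATF5, which were. In ZNF263 KO ZIC2 OE against ZNF263 KO, 9 of the 34 tested genes were called higher and none lower, while 8.34% of all genes were called, 4.99% higher and 3.35% lower. The median log2 fold change was 0.08, against 0.00 over all genes. Libraries did not overlap for 13 genes that were higher and for none that were lower, where 11.3% and 10.5% of all genes did so. With the GC offset the split was 9 higher and 2 lower, beside 15.0% of all genes, the lower ones being ATF4 (log2 fold change -0.08, adjusted p = 0.0362) and TRIB3 (-0.20, adjusted p = 0.0441). PHGDH, not called without the offset (adjusted p = 0.112), was then called higher (0.10, adjusted p = 0.047). Both comparisons use the ZNF263 KO libraries, so their fold changes are not independent and are given side by side.

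DDIT4 had the largest fold change. It stood at 41.2, 40.6 and 35.8 CPM in ZNF263 KO ZIC2 OE, against 25.2, 26.8 and 28.4 CPM in ZNF263 KO. The groups did not overlap, and the difference was 0.56 ± 0.07 (log2, SE, adjusted p = 2.66e-06). Against the WT libraries, at 19.2, 17.1 and 19.5 CPM, DDIT4 in ZNF263 KO ZIC2 OE was 2.11-fold higher (adjusted p = 1.42e-10).

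Genes of synthesis and cystine import that were not called in ZNF263 KO against WT were called here. ASNS had 178, 169 and 163 CPM in ZNF263 KO ZIC2 OE, against 124, 136 and 135 CPM in ZNF263 KO. All ZIC2 libraries were above all others of the study, and the log2 fold change was 0.37 ± 0.05 (SE, adjusted p = 8.8e-06), beside -0.06 in ZNF263 KO against WT. SLC7A11 had 99.5, 92.3 and 95.8 CPM in ZNF263 KO ZIC2 OE, against 84.1, 78.6 and 80.6 CPM in ZNF263 KO. Its log2 fold change was 0.24 ± 0.04 (SE, adjusted p = 0.000624), and again the groups did not overlap. PSAT1 averaged 431 ± 9.04 CPM in ZNF263 KO ZIC2 OE and 387 ± 14.6 CPM in ZNF263 KO (SD, n = 3 each, log2 fold change 0.16 ± 0.04 SE, adjusted p = 0.00417).

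ATF5 had 60.8, 57.6 and 52.2 CPM in ZNF263 KO ZIC2 OE, against 46.1, 45.9 and 50.0 CPM in ZNF263 KO. The closest libraries were 3 CPM apart or less, and the call at a log2 difference of 0.27 ± 0.06 (SE, adjusted p = 0.00378) was lost without ZNF263 KO ZIC2 OE replicate 1 (adjusted p = 0.0514). SLC7A5 had 1091, 988 and 994 CPM in ZNF263 KO ZIC2 OE, against 913, 943 and 943 CPM in ZNF263 KO. Its log2 fold change of 0.13 ± 0.04 (SE, adjusted p = 0.02) was lost without ZNF263 KO ZIC2 OE replicate 1 (adjusted p = 0.153), without ZNF263 KO replicate 1 (0.0793) and with the GC offset, where it was 0.06 (adjusted p = 0.14). DDIT3, uncertain for the overlap with MARS, averaged 6.58 ± 0.665 CPM in ZNF263 KO ZIC2 OE and 4.84 ± 0.748 CPM in ZNF263 KO (SD, n = 3 each, log2 fold change 0.49 ± 0.13 SE, adjusted p = 0.0184). That call was lost without ZNF263 KO ZIC2 OE replicate 1 (adjusted p = 0.13) or 2 (0.0509), without ZNF263 KO replicate 1 (0.173), and in DESeq2 (adjusted p = 0.108).

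SARS and WARS had log2 fold changes of 0.16 (adjusted p = 0.0138) and 0.14 (adjusted p = 0.0208). SARS was lost without ZNF263 KO ZIC2 OE replicate 1 (adjusted p = 0.0736) or 2 (0.078), or without ZNF263 KO replicate 1 (0.0597) or 3 (0.0707). WARS was lost without ZNF263 KO ZIC2 OE replicate 1 (adjusted p = 0.141) or without ZNF263 KO replicate 1 (0.0983) or 3 (0.077). The calls of DDIT4, ASNS, SLC7A11 and PSAT1 held under every alternative run.

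ATF3, VLDLR and SLC3A2, which were called higher in ZNF263 KO than in WT, were not called between the 2 knockout groups. ATF3 had 34.3, 36.2 and 35.8 CPM in ZNF263 KO ZIC2 OE, against 31.5, 34.4 and 36.5 CPM in ZNF263 KO. The groups overlapped, and the 95% interval of the log2 fold change ran from -0.07 to 0.20. VLDLR had 49.7, 50.2 and 51.8 CPM in ZNF263 KO ZIC2 OE, against 53.7, 51.6 and 57.4 CPM in ZNF263 KO (interval -0.21 to 0.00). SLC3A2 had 547, 509.6 and 490.3 CPM in ZNF263 KO ZIC2 OE, against 443, 506 and 463 CPM in ZNF263 KO. Its groups overlapped and it was not called (log2 fold change 0.13 ± 0.05 SE, adjusted p = 0.0854), though it was called without ZNF263 KO replicate 2 (adjusted p = 0.00121) or ZNF263 KO ZIC2 OE replicate 3 (adjusted p = 0.0448). ATF4 had 523, 548 and 519 CPM in ZNF263 KO ZIC2 OE, against 523, 566 and 542 CPM in ZNF263 KO. It was not called (log2 fold change -0.04 ± 0.04 SE, adjusted p = 0.659), though it was called lower with the GC offset as given above. STC2 had 90.0, 74.6 and 73.4 CPM in ZNF263 KO ZIC2 OE, against 68.8, 70.9 and 70.6 CPM in ZNF263 KO, and SESN2 had 39.7, 34.3 and 35.8 CPM, against 33.8, 35.7 and 29.5 CPM. Neither was called (adjusted p = 0.073 and 0.202), and STC2 replicate 1 stood apart from the other ZIC2 libraries. STC2 was called without ZNF263 KO replicate 2 (adjusted p = 0.0325) or without ZNF263 KO ZIC2 OE replicate 2 (0.0454) or 3 (0.0314).

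In ZNF263 KO ZIC2 OE against WT, 22 of the 34 genes were called higher and 2 lower, against 37.6% of all genes, 20.3% higher and 17.3% lower. The median log2 fold change was 0.23, against 0.00 over all genes, and 0.17 with the GC offset. Libraries did not overlap for 28 genes that were higher and 3 that were lower, where 25.0% and 22.3% of all genes did so. All 7 stress effectors and all 3 transporters were called higher. The largest fold changes after DDIT4 were those of SLC7A5 (log2 fold change 0.81 ± 0.04 SE, adjusted p = 2.17e-13), ATF3 (0.65 ± 0.07 SE, adjusted p = 2.02e-07), DDIT3 (0.63 ± 0.14 SE, adjusted p = 0.0012) and ATF5 (0.58 ± 0.06 SE, adjusted p = 1.75e-07). TRIB3 (adjusted p = 0.000943) and MARS (adjusted p = 0.000593) were not called with the GC offset, at adjusted p of 0.0624 and 0.094. The genes called lower were XPOT (-0.19 ± 0.04 SE, adjusted p = 0.000205, and -0.10 with the GC offset) and EDEM1 (-0.23 ± 0.07 SE, adjusted p = 0.0143). EDEM1 was not called without ZNF263 KO ZIC2 OE replicate 2 (adjusted p = 0.0505) or 3 (0.0504), without WT replicate 3 (0.0909) or with the GC offset (0.0573). The call of GARS (adjusted p = 0.0438) was lost without ZNF263 KO ZIC2 OE replicate 1 (0.129) or 3 (0.0949), without WT replicate 1 (0.0965), 2 (0.191) or 3 (0.135), in DESeq2 (0.0742) and with the GC offset (0.145). ATF4 was not called (0.08 ± 0.04 SE, adjusted p = 0.0826) and was called lower with the GC offset, at -0.09 (adjusted p = 0.0113). PYCR1, at 0.03 (adjusted p = 0.683), was also called lower with the offset, at -0.17 (adjusted p = 0.00036). XBP1 and MTHFD2, not called at 0.11 (adjusted p = 0.0568) and 0.09 (adjusted p = 0.0622), were called higher with it, at 0.16 each (adjusted p = 0.000704 and 8.27e-05). CEBPB was not called (0.20, adjusted p = 0.0874), though it was without WT replicate 1 (adjusted p = 0.049), and it stood at -0.000743 with the offset.

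Overexpression of ZNF263 left nearly all of these genes without a call. In ZNF263 OE against WT, none of the 34 genes was called higher and 1 was called lower, while 0.764% of all genes were called, 0.317% higher and 0.447% lower. The median log2 fold change was -0.05, against 0.00 over all genes, and 30 of the 34 values were below 0. At an unadjusted p under 0.05, 8 genes were lower and none higher, against 10.6% of all genes in either direction. Libraries did not overlap for 2 genes that were higher and 12 that were lower, where 9.92% and 9.46% of all genes did so.

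SLC7A11 was the gene called. It had 73.0, 73.5 and 69.8 CPM in ZNF263 OE, against 87.2, 84.2 and 82.4 CPM in WT. The groups did not overlap, and the log2 fold change was -0.23 ± 0.04 (SE, adjusted p = 0.0102). The call was lost without ZNF263 OE replicate 3 (adjusted p = 0.115) or without WT replicate 1 (adjusted p = 0.0648). Per length, SLC7A11 over SLC3A2 was 0.0520 ± 0.00518 in ZNF263 KO, 0.0560 ± 0.00242 in ZNF263 KO ZIC2 OE, 0.0579 ± 0.00126 in ZNF263 OE and 0.0710 ± 0.00212 in WT (SD, n = 3 each). The libraries of all 3 altered groups lay below those of WT in this ratio, so a lower ratio was not particular to ZNF263 OE. SLC3A2 averaged 471 CPM in ZNF263 KO, 516 in ZNF263 KO ZIC2 OE, 375 in ZNF263 OE and 359 in WT. SLC7A11 itself was not called in ZNF263 KO against WT without the GC offset. It was called higher in ZNF263 KO ZIC2 OE against WT (log2 fold change 0.18 ± 0.04 SE, adjusted p = 0.00231).

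Several stress effectors lay in the same direction without a call. VLDLR had 30.9, 34.5 and 34.0 CPM in ZNF263 OE, against 39.0, 36.8 and 39.0 CPM in WT (log2 fold change -0.21 ± 0.06 SE, adjusted p = 0.107). STC2 had 52.3, 59.0 and 52.6 CPM in ZNF263 OE, against 61.9, 62.3 and 67.0 CPM in WT (-0.23 ± 0.07 SE, adjusted p = 0.127). SESN2 had 23.1, 25.4 and 23.0 CPM in ZNF263 OE, against 28.4, 28.9 and 26.5 CPM in WT (-0.23 ± 0.08 SE, adjusted p = 0.213). Libraries of these 3 genes did not overlap between the groups. With the GC offset SESN2 (adjusted p = 0.0357) and STC2 (adjusted p = 0.0274) were called lower as well, while 1.52% of all genes were called. STC2 was also called with no filter on low counts (adjusted p = 0.00465). DDIT4 had 16.3, 16.6 and 14.6 CPM in ZNF263 OE, against 19.2, 17.1 and 19.5 CPM in WT (-0.24 ± 0.08 SE, adjusted p = 0.235). SLC7A5, at 563, 571 and 570.4 CPM in ZNF263 OE against 587, 570.0 and 595 CPM in WT, overlapped between the groups, and the 95% interval of its log2 fold change ran from -0.12 to 0.04. ATF4 had 483, 491 and 491 CPM in ZNF263 OE, against 517, 493 and 493 CPM in WT, and was not called (-0.04 ± 0.04 SE, adjusted p = 0.782). ZNF263 KO and ZNF263 OE are both set against the same WT libraries, so the fold changes of a gene in the 2 comparisons share that error.

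The 5 genes whose level followed that of ATF4 most closely over the 12 libraries, by the Pearson correlation of log2 CPM, were AP2S1 (0.98), RPS12, FOXD3-AS1, ZFAS1 and RPL14. The gene of the set with the highest correlation was CHAC1, at 0.89 and rank 422 of 15436 genes. ASNS stood at 0.34, XPOT at -0.83. These correlations describe 12 libraries that fall into 4 groups.

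Other genes of the pathway were taken from lists that were not trimmed by their values, though earlier results of these data were known. In ZNF263 KO against WT, every list held calls in both directions, except that around the oxidative stress factor NRF2, given last. Of 15 genes of the eIF2 kinases, eIF2 and its exchange factor eIF2B, 2 were called higher and 3 lower. Over all genes the share called was 38.6%, with 20.0% higher and 18.5% lower. EIF2B2, a subunit of eIF2B, differed by 0.27 ± 0.05 (log2, SE), and EIF2S3, a subunit of eIF2, by -0.13 ± 0.03. EIF2AK2 (PKR), the kinase that senses viral RNA, had -0.22 ± 0.07 (SE, adjusted p = 0.0111), and IMPACT, an inhibitor of the amino acid sensor GCN2, had -0.18 ± 0.04. With the GC offset EIF2B2 was still called, and EIF2S3 (adjusted p = 0.0941), EIF2AK2 (0.273) and IMPACT (0.475) were not.

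Of 20 further amino acid and one-carbon enzymes, 6 were called higher and 7 lower, beside 20.0% and 18.5% of all genes. BCAT1, which transaminates leucine, isoleucine and valine, averaged 478 ± 16.4 CPM in ZNF263 KO and 661 ± 11.9 CPM in WT (SD, n = 3 each, log2 fold change -0.47 ± 0.03 SE, and -0.27 with the GC offset). PRODH, which degrades proline, averaged 28.2 ± 1.21 CPM in ZNF263 KO and 20.3 ± 0.553 CPM in WT (0.47 ± 0.06 SE). PRODH was lower in ZNF263 KO ZIC2 OE than in ZNF263 KO (-0.38 ± 0.06 SE), where it averaged 21.6 ± 1.63 CPM. ASS1, which makes argininosuccinate, averaged 61.7 ± 3.37 CPM in ZNF263 KO ZIC2 OE and 29.3 ± 0.628 CPM in ZNF263 KO, a 2.12-fold difference, and was not called in ZNF263 KO against WT.

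Of 17 further amino acid transporters, 3 were called higher and 6 lower in ZNF263 KO against WT, beside 20.0% and 18.5% of all genes. SLC1A3, a glutamate transporter, averaged 12.4 ± 2.29 CPM in ZNF263 KO and 21.2 ± 1.26 CPM in WT (SD, n = 3 each, log2 fold change -0.77 ± 0.09 SE). In ZNF263 KO ZIC2 OE it averaged 20.9 ± 0.378 CPM, 0.74 ± 0.09 (log2, SE) above ZNF263 KO. SLC7A3, a transporter of cationic amino acids, was higher in ZNF263 KO than in WT (0.32 ± 0.04 SE), and SLC38A1, a glutamine transporter, was lower (-0.30 ± 0.04 SE, and -0.15 with the GC offset). SLC7A6, which like SLC7A5 pairs with SLC3A2, was also lower (-0.33 ± 0.05 SE), opposite to SLC7A5.

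Of 12 further cytosolic tRNA synthetases tested, 1 was called higher and 4 lower, beside 20.0% and 18.5% of all genes. The higher one was FARSA for phenylalanine (0.28 ± 0.04 SE, and 0.11 with the GC offset). Among the lower ones were IARS, DARS and LARS for isoleucine, aspartate and leucine (-0.21, -0.19 and -0.15). With the GC offset these were -0.14, -0.09 and -0.04, and LARS was not called (adjusted p = 0.199). Of 17 mitochondrial synthetases, 3 were called higher and 2 lower, beside the same shares of all genes. Of 29 further genes of the endoplasmic reticulum stress response tested, 12 were called higher and 6 lower, again beside 20.0% and 18.5% of all genes. EDEM2, a relative of EDEM1, averaged 24.7 ± 1.48 CPM in ZNF263 KO and 17.8 ± 1.56 CPM in WT (SD, n = 3 each, 0.47 ± 0.08 SE), opposite to EDEM1. The chaperone CALR was higher (0.19 ± 0.03 SE) and the chaperone HSP90B1 lower (-0.17 ± 0.03 SE), at 0.08 and -0.08 with the GC offset. WFS1, a membrane protein of the endoplasmic reticulum, averaged 81.1 ± 3.49 CPM in ZNF263 KO ZIC2 OE and 55.0 ± 0.311 CPM in ZNF263 KO (0.56 ± 0.05 SE). Of 14 genes tested around the oxidative stress factor NRF2, a list that also holds SLC7A11, 7 were called higher in ZNF263 KO against WT and none lower. Over all genes these shares were 20.0% and 18.5%. NQO1, a quinone reductase, was at 0.37 ± 0.05 (SE).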

How the data were processed

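The authors deposited 1 table of whole-number read counts per gene for the 12 libraries, with no normalization, and beside it a gene length in bases and hg19 exon coordinates. Only uniquely aligned reads were counted, per the file headers. STAR, featureCounts, DESeq2 and hg19 are named in the submitters' processing notes, whose versions, order and settings are not given in the sources used here. Per the labels' protocols, poly(A) RNA was made into libraries with a NEBNext Ultra II RNA kit, which does not mark strand.

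Counts were read as deposited. After the default expression filter, 15437 genes were tested with edgeR 4.0.16 in R 4.3.3 (TMM scaling, quasi-likelihood test, group as the only term, all 12 libraries in 1 fit, 8 residual degrees of freedom, common biological coefficient of variation 0.04). P-values were adjusted by Benjamini-Hochberg over all genes of a comparison, and a direction was judged for genes at an adjusted p under 0.05. CPM use the TMM factors. TPM were computed from the counts and the deposited lengths without TMM factors, to compare levels between genes. Intervals of fold changes are at 95%.

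The genes and lists were chosen with earlier results of these data known. Values of every library are given for ATF4 and for the genes among the 4 with the smallest adjusted p in any comparison. From each list of other pathway genes, up to 4 genes by adjusted p in ZNF263 KO against WT and up to 2 in ZNF263 KO ZIC2 OE against ZNF263 KO were eligible to be named, if called. Some eligible results are not reported here.

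Alternatives were RLE size factors, no filter, DESeq2 1.42.0, the replicate number as a block, an offset for GC content and length (splines with 5 degrees of freedom per library, GC from the longest GENCODE transcript, 97.0% of tested genes with a value), both together, and each library left out. The steps were tested on simulated counts. Promoters are from RefSeq (GRCh38.p14). Entries for NUPR1, PSPH, SHMT2, PYCR1 and SLC7A11 were not used here. Coordinates of genes are hg19 and those of promoters GRCh38.p14, and they were not combined.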

Additional observations from a re-analysis of the deposited data

How the results depend on the processing

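Of 1632 alternative values for single genes of the set, 1476 kept their direction and side of the threshold, 61 lost and 38 gained a call in the same direction, 8 changed direction with a call in at least 1 of the fits compared, and 49 changed direction without a call in either. The 8 all came from the offset for GC content and length, alone and with the replicate block: ATF4 in ZNF263 KO against WT (log2 fold change -0.00864 and -0.00858), SLC7A11 there (0.16 and 0.15), ATF4 in ZNF263 KO ZIC2 OE against WT (-0.0894 and -0.0896) and PYCR1 there (-0.17 in both). KEAP1, from the NRF2 list, also changed direction in that comparison (-0.0471 in both). Of the 49, 22 came from the offset. CEBPB turned from 0.18 to -0.00638 with it in ZNF263 KO against WT and from 0.20 to -0.000743 in ZNF263 KO ZIC2 OE against WT, and the 44 that were not of CEBPB had log2 fold changes of at most 0.0697 in size before the turn. The cause was not tested. The number of genes called in ZNF263 KO ZIC2 OE against ZNF263 KO, 9, ran from 4 to 13 when 1 library was left out. In ZNF263 OE against WT, 1 gene was called, against 2 with no filter and 3 with the GC offset, alone or with the block, and 0 to 1 with 1 library left out. Median log2 fold changes moved by more than the replicate spread with the GC offset, to 0.17 in ZNF263 KO ZIC2 OE against WT and to -0.0681 in ZNF263 OE against WT, with or without the block.

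With the replicate number as a block, 20 genes were called in ZNF263 KO against WT, 9 in ZNF263 KO ZIC2 OE against ZNF263 KO, 24 in ZNF263 KO ZIC2 OE against WT and 1 in ZNF263 OE against WT. Over all groups, the numbers showed no clear pairing. Deviations from group means of the 18 pairs of equal number correlated at -0.40 to 0.34. Those of the 36 other pairs correlated at -0.32 to 0.43. Between ZNF263 KO and ZNF263 KO ZIC2 OE, pairs of equal number correlated at 0.02, 0.34 and 0.14, and the others at -0.32 to 0.28. With 3 libraries per group, this check cannot exclude pairing.

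Depth limits NUPR1, which had too few counts to test, and DDIT3, which had under 10 CPM in every library and shares exon bases with a gene of far higher level. Message levels cannot show translation, through which ATF4 is mainly controlled.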

Other observations

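CEBPB shares 561 exon bases, 26.6% of its length, with CEBPB-AS1 on the opposite strand, which held 181 counts over all libraries against 3048 for CEBPB. ATF5 shares 75 exon bases with NUP62, which held 39349 counts, against 11371 for ATF5. SLC7A11 shares 276 exon bases with SLC7A11-AS1 (177 counts, against 21123) and VLDLR 172 with VLDLR-AS1 (286 counts, against 11414). Since strand was not marked, reads from these shared bases cannot be told apart.

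Per length, the set spanned a wide range in WT. After ATF4 came PHGDH (613 ± 7.95 TPM, SD, n = 3) and PSAT1 (450.2 ± 3.19 TPM), and the lowest of the tested genes was EDEM1 (8.25 ± 0.692 TPM).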
